A study of Homo sapiens with 8 samples.

Results

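The genes described here are 51 enzymes, transporters and regulators of glucose breakdown, read in HCT116 cells, a human colon cancer line, after heat stress. They were taken by name from a list made by gene function, which was drawn up with earlier results of these data known, and cover glucose and lactate transport (3 genes), glycolysis (16), kinases that set the rate of these pathways (4), the pentose phosphate pathway (6), pyruvate dehydrogenase (2), the TCA cycle (15) and adjoining side reactions (5). All 51 were found among the 55075 genes in the count tables, and all 51 were among the 17471 genes with enough reads to be tested. The 4 groups were FBXW7 knockout (KO) cells after recovery, KO cells at heat shock, wild-type (WT) cells after recovery and WT cells at heat shock, with 2 libraries each and 8 in all. Every group had been heated at 42 °C for 1 h, and the recovery groups were then kept at 37 °C for 2 h, so all groups share the heat treatment. Unheated cells were not analysed here. FBXW7 is the substrate-binding subunit of a ubiquitin ligase whose known substrates include MYC and HSF1. The number of knockout clones, and any separate cultures behind replicate libraries, are not stated in the labels. P-values therefore reflect only how far these libraries differ, which may be technical.

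Glycolysis splits glucose into pyruvate, which is either reduced to lactate and exported or carried into mitochondria, where pyruvate dehydrogenase turns it into acetyl-CoA for the TCA cycle. The pentose phosphate pathway branches off at glucose 6-phosphate and yields NADPH and ribose. Colon cancer lines run glycolysis at a high rate even with oxygen present, and the transcription factors MYC and HIF1A are known to raise many of its genes.

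Total counts per library ran from 15507896 to 34387618. FBXW7 itself had 14.01 and 13.8 CPM (counts scaled to library size, here the TMM-scaled total) in KO recovery, against 17.4 and 14.9 in KO heat shock, 22.97 and 21.7 in WT recovery and 33.5 and 31.4 in WT heat shock. It was lower in KO at recovery (log2 fold change -0.68 ± 0.11, edgeR adjusted p = 8e-05) and at heat shock (-1.01 ± 0.10, edgeR adjusted p = 1.9e-06), but was still read in KO libraries, and gene counts do not show which part of the gene was deleted. Epithelial markers were present in every library, with EPCAM at 247 to 339 CPM, KRT8 at 677 to 1199 CPM and CDX2 at 7.77 to 13.4 CPM. The leukocyte markers PTPRC and CD3E and the endothelial markers VWF and CDH5 each stayed under 1 CPM in all 8 libraries, as did the fibroblast markers COL1A2 and DCN and the globins HBA1 and HBB, while COL1A1 had 6.25 to 9.83 CPM. Reads of pseudogenes named after GAPDH numbered 85 and 65 in KO recovery, 132 and 231 in KO heat shock, 668 and 654 in WT recovery and 150 and 109 in WT heat shock, so the WT recovery libraries stood apart in this respect. The labels name both poly-A selection and ribosomal depletion without saying which library had which, and its part in the results was not tested.

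The first question was how these genes differed between recovery and the end of heat shock in each line. Which column of a deposited table holds recovery was read from the order of names in its comparison, and the opposite order would turn every sign. In KO cells most of the genes that changed were higher after recovery, and in WT cells most were lower. In KO, 25 of 51 genes rose, 7 fell and 19 did not pass the test (edgeR quasi-likelihood test, Benjamini-Hochberg adjusted p under 0.05), with a median log2 fold change, recovery over heat shock, of 0.22. Among all genes tested in KO, 20.6% rose and 21.1% fell (41.8% in either direction), with a median of -0.02. In WT, 7 genes rose, 24 fell and 20 did not pass, with a median of -0.21. Among all genes tested in WT, 24.8% rose and 26.0% fell (50.8% in either direction), with a median of 0.01. The KO response minus the WT response was above 0 for 31 genes, below 0 for 8 and did not pass for 12, with a median of 0.53, while 28.5% of all genes tested were above 0, 27.8% below 0 and 56.3% passed in either direction. Because these genes are abundant, shares were also taken among the 10957 genes at or above the lowest level of the 51: in KO 26.8% rose and 27.0% fell (53.8% in either direction), in WT 24.5% rose and 36.7% fell (61.2%), and for the difference 38.7% were above 0 and 29.9% below 0 (68.5%). In these bulk libraries, fewer cells and less RNA per cell cannot be told apart, and every value is a share of the library's reads.

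Set side by side, 17 genes rose in KO and fell in WT, a pattern held by 11.5% of all genes tested. They were the transporters SLC2A1 and SLC16A3, the glycolytic enzymes GPI, PFKL, PFKP, ALDOA, TPI1, PGAM1 and ENO1, the pentose phosphate enzymes PGD and TKT, PDHA1, and the TCA cycle genes IDH2, IDH3B, IDH3G, OGDH and MDH2. The reverse, lower in KO recovery and higher in WT recovery, was found for 4 genes (PDK1, RPE, SUCLG2 and ME2), against 10.5% of all genes tested. By edgeR 0 of the 51 genes passed in the same direction in both lines. Among all genes tested, 1.94% fell in both lines and 1.8% rose in both, so this pattern was rare in all genes too. The count for the 51 was also 0 at an unadjusted p under 0.05 and by DESeq2. With offsets for the GC content and length of transcripts it was 3. With 1 KO library left out, the KO response is 1 pair and its spread is taken from WT and from the fit across genes. The 25 genes that rose in KO became 9 without replicate 1 of KO heat shock and 12 without replicate 1 of KO recovery, and 18 without replicate 2 of either KO group. All 25 kept their sign in every such fit, with a median log2 fold change of 0.40, 0.43 and 0.59 in those fits, against 0.53 with all libraries. The 7 that fell in KO became 3 or 4 without a KO library, again with the same sign in all 7. The 17 genes with opposite changes became 5 without replicate 1 of KO heat shock and 8 without replicate 1 of KO recovery, and between 13 and 19 without any of the other 6 libraries. The 4 genes of the reverse pattern became 2 without replicate 1 of either WT group, replicate 2 of KO recovery or either KO heat shock library, 3 without replicate 1 of KO recovery, and 1 with GC and length offsets. The 7 genes that rose in WT became 4 without replicate 1 of WT recovery or of WT heat shock, with all 7 above 0, while the number that fell in WT stayed between 21 and 23. Where a lost call is named below, the fold change and adjusted p are those of the fit with the highest p. In no leave-one-out fit did a gene pass in the same direction in both lines.

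**Figure D1:**
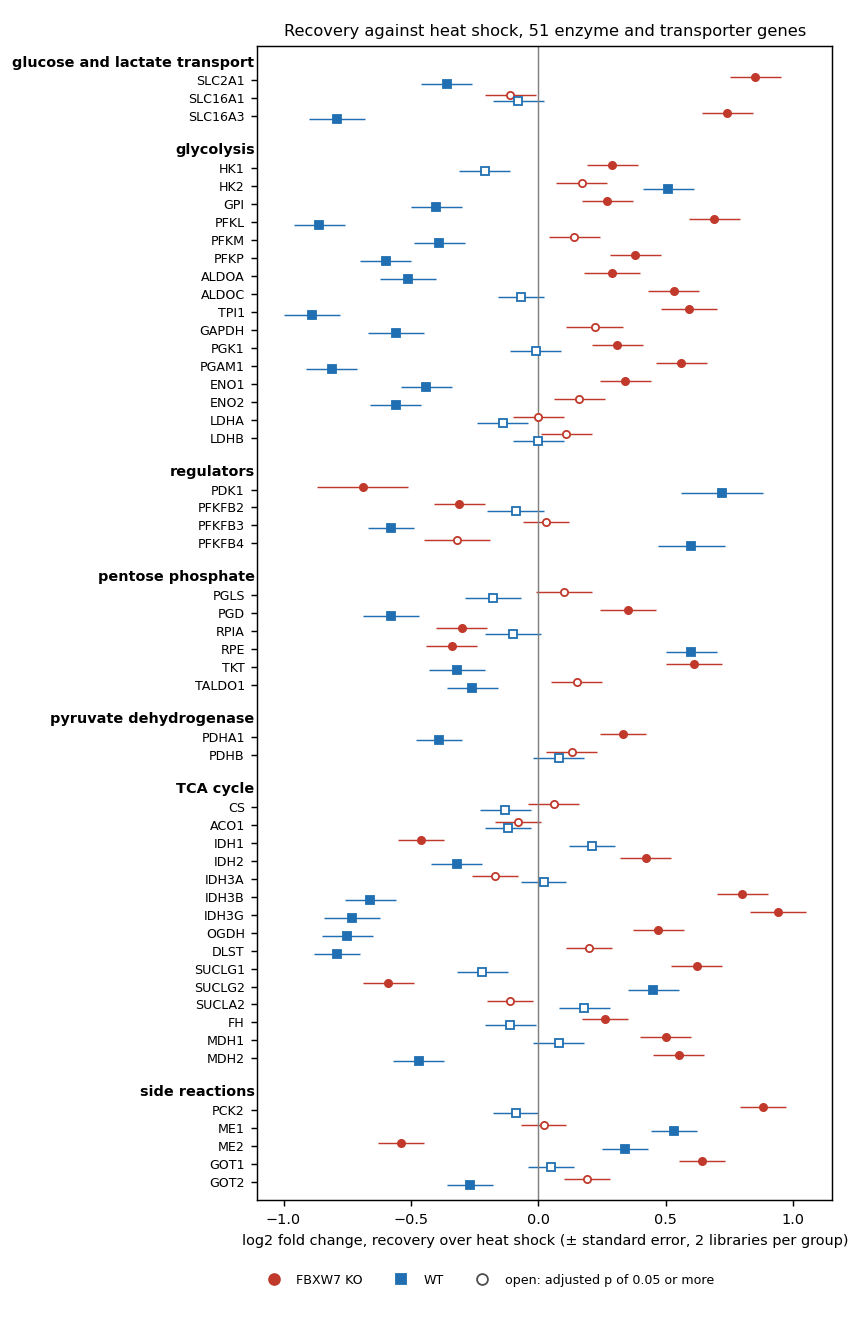
Log2 fold change of each of the 51 genes, recovery over heat shock, in KO (red circles) and WT (blue squares), by pathway step, with bars of 1 standard error and 2 libraries per group. Filled symbols passed the edgeR test, and KO circles lie to the right of WT squares for most genes. PDK1, SUCLG2, RPE, PFKFB4 and ME2 lie furthest the other way round, and IDH1, ME1 and HK2 are among the others that do so.

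The differences between the responses were largest for IDH3G and PFKL in the direction of KO, and for PDK1 and SUCLG2 in the direction of WT. The promoters of these genes, which were chosen by the size of their differences, are shown. Each is the 250 bases before the RefSeq start on GRCh38.p14, read 5′ to 3′ on the gene's strand. Capitals mark letters that match a searched motif on either strand. The motifs are ACGTG (a core bound by HIF1A) and GAANNTTC (a pair of heat shock element units bound by HSF1). Other forms of the HIF1A core were not searched.

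IDH3G: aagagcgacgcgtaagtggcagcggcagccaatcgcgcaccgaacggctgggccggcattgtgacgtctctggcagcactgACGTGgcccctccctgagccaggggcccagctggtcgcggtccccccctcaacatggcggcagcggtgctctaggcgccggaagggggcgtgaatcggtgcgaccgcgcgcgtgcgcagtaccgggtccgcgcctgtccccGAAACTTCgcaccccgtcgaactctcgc

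PFKL: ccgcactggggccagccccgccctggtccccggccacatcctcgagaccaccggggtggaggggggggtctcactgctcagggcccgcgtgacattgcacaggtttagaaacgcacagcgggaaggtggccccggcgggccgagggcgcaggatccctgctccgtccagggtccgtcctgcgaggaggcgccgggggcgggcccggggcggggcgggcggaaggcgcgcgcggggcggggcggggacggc

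PDK1: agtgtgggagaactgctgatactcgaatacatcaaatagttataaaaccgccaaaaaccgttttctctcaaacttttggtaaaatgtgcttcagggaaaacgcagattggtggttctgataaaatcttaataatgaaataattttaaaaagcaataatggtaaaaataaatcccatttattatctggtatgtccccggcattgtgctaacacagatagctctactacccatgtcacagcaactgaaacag

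SUCLG2: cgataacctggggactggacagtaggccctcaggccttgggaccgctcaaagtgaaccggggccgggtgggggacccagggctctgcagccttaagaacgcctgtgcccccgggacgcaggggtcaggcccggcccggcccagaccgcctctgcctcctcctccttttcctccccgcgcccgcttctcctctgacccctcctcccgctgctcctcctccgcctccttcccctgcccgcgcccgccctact

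These are IDH3G at chrX:153794376-153794625 on the minus strand, PFKL at chr21:44299803-44300052 on the plus strand, PDK1 at chr2:172555123-172555372 on the plus strand and SUCLG2 at chr3:67654613-67654862 on the minus strand. IDH3G held ACGTG at -169 to -165 and GAANNTTC at -28 to -21, counted from the RefSeq start, and the other sequences held neither. The GENCODE gene of IDH3G, on the minus strand, ends at 153794523, which lies inside this stretch. By that annotation the GAANNTTC match is within the gene and only the ACGTG match is before its start. Their GC content was 70.4% for IDH3G, 78.0% for PFKL, 35.6% for PDK1 and 71.2% for SUCLG2. That of PDK1 was the lowest among the 48 of 51 genes that had an entry in the promoter table, whose median was 68.8%, against 58.0% over all 27305 promoters. Over the 48 promoters, ACGTG was present in 27.1%, against 18.7% of all promoters, and its longer form CACGTG, the E-box bound by MYC among others, in 8.33%, against 6.49%. GAANNTTC was present in 6.25%, against 5.85% of all promoters. TTCNNGAA, the other arrangement of heat shock element units, was present in 6.25%, against 6.72%. TGATGNAA, bound by ATF4 with a C/EBP partner, was present in 4.17%, against 3.19%, and TGACGTCA, bound by CREB and ATF factors, in 2.08%, against 1.77%. Every CACGTG match also counts as ACGTG, and all motifs were searched on both strands. These are letter matches, and binding was not measured here.

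Glucose enters and lactate leaves the cell through the first genes of the set. SLC2A1, the glucose transporter GLUT1 (ENSG00000117394, chr1:42925375-42959176, minus strand, GRCh38), had 258 and 226 CPM in KO recovery, against 131 and 137 CPM in KO heat shock. WT had 76.1 and 74.2 CPM in WT recovery, against 103 and 90.7 CPM in WT heat shock. Both KO recovery libraries stood above every other library and both WT recovery libraries below. SLC2A1 rose in KO (log2 fold change 0.85 ± 0.10, edgeR adjusted p = 1.7e-06) and fell in WT (-0.36 ± 0.10, edgeR adjusted p = 0.00532), and the responses differed by 1.21 ± 0.14 (edgeR adjusted p = 7.6e-07). SLC16A3, the lactate exporter MCT4, had 329.6 and 271 CPM in KO recovery, against 171 and 187 CPM in KO heat shock. Its WT values were 135 and 126 CPM in WT recovery, against 229 and 221 CPM in WT heat shock. Here too KO recovery was highest and WT recovery lowest, with no overlap in either line. SLC16A3 rose in KO (0.74 ± 0.10, edgeR adjusted p = 1.9e-05) and fell in WT (-0.79 ± 0.11, edgeR adjusted p = 7.2e-06). It overlaps CSNK1D on the other strand, a gene with a similar number of reads (39408 counts over the 8 libraries, against 38779 for SLC16A3), so its values are uncertain if strand was not used in counting. SLC16A1, the related transporter MCT1, had 195 and 199 CPM in KO recovery, against 209 and 216 CPM in KO heat shock, and 149 and 142 CPM in WT recovery, against 141 and 167 CPM in WT heat shock. Neither change passed, with log2 fold changes of -0.11 ± 0.10 in KO and -0.08 ± 0.10 in WT (edgeR adjusted p = 0.393 and 0.517). With GC and length offsets the WT change of SLC2A1 was -0.16 and did not pass (edgeR adjusted p = 0.117).

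In the upper part of glycolysis, glucose is phosphorylated by hexokinases, committed by phosphofructokinase and cleaved by aldolase. Of the hexokinases, HK1 rose in KO and HK2 rose in WT. HK1 had 89.6 and 78.01 CPM in KO recovery, against 69.9 and 67.1 CPM in KO heat shock, and rose (0.29 ± 0.10, edgeR adjusted p = 0.0237). In WT it had 129 and 128 CPM in WT recovery, against 165 and 134 CPM in WT heat shock, and did not pass (-0.21 ± 0.10, edgeR adjusted p = 0.0831). HK2, the inducible form common in tumours, had 50.7 and 46.4 CPM in KO recovery, against 42.3 and 43.6 CPM in KO heat shock, and did not pass (0.17 ± 0.10, edgeR adjusted p = 0.169). WT had 69.9 and 72.4 CPM in WT recovery, against 54.4 and 45.9 CPM in WT heat shock of HK2, with both recovery libraries above both heat shock libraries, and HK2 rose there (0.51 ± 0.10, edgeR adjusted p = 0.00034). HK2 was the only glycolytic gene of the 16 to rise in WT by edgeR. GPI, which isomerises glucose 6-phosphate, averaged 614 ± 13.9 CPM in KO recovery and 509.8 ± 17.8 CPM in KO heat shock (SD, n = 2 each), against 537 ± 9.35 CPM in WT recovery and 711 ± 104 CPM in WT heat shock. It rose in KO (0.27 ± 0.10, edgeR adjusted p = 0.0414) and fell in WT (-0.40 ± 0.10, edgeR adjusted p = 0.00325).

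The phosphofructokinase subunits PFKL (liver type), PFKM (muscle type) and PFKP (platelet type) all fell in WT. PFKL (ENSG00000141959, chr21:44300051-44327376, plus strand) had 161 and 145 CPM in KO recovery, against 92.7 and 97.2 CPM in KO heat shock. WT had 93.3 and 91.6 CPM in WT recovery, against 192 and 146 CPM in WT heat shock of PFKL. The 2 groups of each line were fully apart, and the KO heat shock libraries lay at the level of the WT recovery libraries. PFKL rose in KO (0.69 ± 0.10, edgeR adjusted p = 3.5e-05) and fell in WT (-0.86 ± 0.10, edgeR adjusted p = 2.5e-06). PFKP had 301 and 273 CPM in KO recovery, against 212 and 227 CPM in KO heat shock, and 208 and 201 CPM in WT recovery, against 349.8 and 275 CPM in WT heat shock. It likewise rose in KO (0.38 ± 0.10, edgeR adjusted p = 0.00583) and fell in WT (-0.60 ± 0.10, edgeR adjusted p = 0.00011). PFKM had 129 and 123 CPM in KO recovery, against 113 and 116 CPM in KO heat shock, and 100.1 and 106 CPM in WT recovery, against 145 and 125 CPM in WT heat shock. It fell in WT (-0.39 ± 0.10, edgeR adjusted p = 0.00305) and did not pass in KO (0.14 ± 0.10, edgeR adjusted p = 0.257). Per kilobase of transcript, PFKP was the most abundant of the subunits in each group, with 108 ± 7.50 CPM per kb in KO recovery and 82.7 ± 4.004 in KO heat shock, against 77.1 ± 1.75 in WT recovery and 118 ± 19.9 in WT heat shock (SD, n = 2 each). PFKL and PFKM were within 31.8 to 57.96 CPM per kb, and their order changed between groups. The aldolases ALDOA and ALDOC both rose in KO. ALDOA had 1115 and 1105 CPM in KO recovery, against 876 and 939 CPM in KO heat shock, and 972 and 929.5 CPM in WT recovery, against 1542 and 1188 CPM in WT heat shock, and changed by 0.29 ± 0.11, edgeR adjusted p = 0.0323 in KO and by -0.51 ± 0.11, edgeR adjusted p = 0.00054 in WT. ALDOC, a form best known from brain, had 29.4 and 26.1 CPM in KO recovery, against 20.1 and 18.2 CPM in KO heat shock. WT had 78.3 and 74.1 CPM in WT recovery, against 87.5 and 73.4 CPM in WT heat shock of ALDOC, several times the KO level, and the WT groups overlapped. ALDOC rose in KO (0.53 ± 0.10, edgeR adjusted p = 0.0003) and did not pass in WT (-0.07 ± 0.09, edgeR adjusted p = 0.533), but 2 other annotated genes overlap it, on the same and on the other strand, so its reads may be shared.

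Among the genes of the set that act from triose phosphate to pyruvate, TPI1 and PGAM1 had the largest fold changes in each line. TPI1, which interconverts the triose phosphates (ENSG00000111669, chr12:6867119-6870948, plus strand), had 1017 and 892 CPM in KO recovery, against 642 and 625 CPM in KO heat shock. WT had 465 and 493 CPM in WT recovery, against 998 and 789 CPM in WT heat shock of TPI1. The WT recovery libraries were the lowest of the 8, and KO recovery and WT heat shock shared the top range. TPI1 rose in KO (0.59 ± 0.11, edgeR adjusted p = 0.0003) and fell in WT (-0.89 ± 0.11, edgeR adjusted p = 3.1e-06), a difference of 1.48 ± 0.16 (edgeR adjusted p = 3e-07). GAPDH, often used as a reference gene, had 4220.1 and 3932 CPM in KO recovery, against 3479 and 3523 CPM in KO heat shock. In WT, GAPDH had 3711 and 3701 CPM in WT recovery, against 6139.8 and 4857 CPM in WT heat shock, and it fell (-0.56 ± 0.11, edgeR adjusted p = 0.00034), while the KO change did not pass (0.22 ± 0.11, edgeR adjusted p = 0.119). The 2 WT heat shock libraries differed by more than the WT recovery libraries did, but both lay above all 6 others. PGK1, which makes ATP from 1,3-bisphosphoglycerate, averaged 443 ± 30.1 CPM in KO recovery and 356 ± 3.83 CPM in KO heat shock, and rose (0.31 ± 0.10, edgeR adjusted p = 0.0146). In WT it averaged 474 ± 4.84 CPM in recovery and 478 ± 12.1 CPM in heat shock and did not pass (-0.01 ± 0.10, edgeR adjusted p = 0.932). PGAM1, phosphoglycerate mutase, had 360.2 and 299 CPM in KO recovery, against 216 and 229 CPM in KO heat shock, and 189 and 174 CPM in WT recovery, against 333 and 304 CPM in WT heat shock. Recovery and heat shock did not overlap in either line, and PGAM1 rose in KO (0.56 ± 0.10, edgeR adjusted p = 0.00024) and fell in WT (-0.81 ± 0.10, edgeR adjusted p = 3.9e-06).

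The enolases ENO1 and ENO2 make phosphoenolpyruvate. ENO1 had 3266 and 3129 CPM in KO recovery, against 2501 and 2567 CPM in KO heat shock. WT had 2122 and 2049.6 CPM in WT recovery, against 2982 and 2701 CPM in WT heat shock of ENO1. It rose in KO (0.34 ± 0.10, edgeR adjusted p = 0.0123) and fell in WT (-0.44 ± 0.10, edgeR adjusted p = 0.00128). ENO2, the neuronal form, had 61.99 and 61.9 CPM in KO recovery, against 53.9 and 56.9 CPM in KO heat shock, and 54.03 and 56.9 CPM in WT recovery, against 90.6 and 73.4 CPM in WT heat shock, and fell in WT (-0.56 ± 0.10, edgeR adjusted p = 0.00017) without passing in KO (0.16 ± 0.10, edgeR adjusted p = 0.206). Per kilobase, ENO1 had 1364 ± 41.3 CPM per kb in KO recovery, against 21.9 ± 0.0218 for ENO2. Lactate dehydrogenase, which closes the pathway by turning pyruvate into lactate, passed no comparison with the filter and scaling used throughout. LDHA had 781 and 733 CPM in KO recovery, against 725 and 785 CPM in KO heat shock, and 712 and 691 CPM in WT recovery, against 759 and 790.1 CPM in WT heat shock. LDHB had 679.7 and 664 CPM in KO recovery, against 609 and 635 CPM in KO heat shock, and 627 and 628 CPM in WT recovery, against 628 and 629 CPM in WT heat shock. The KO groups overlapped for LDHA, and no comparison of LDHA or LDHB passed: the log2 fold changes were 0.00 ± 0.10 in KO and -0.14 ± 0.10 in WT for LDHA (edgeR adjusted p = 0.981 and 0.249), and 0.11 ± 0.10 in KO and 0.00 ± 0.10 in WT for LDHB (edgeR adjusted p = 0.383 and 0.981). Among the 16 glycolytic genes, 10 rose and 0 fell in KO by edgeR (0 fell also at an unadjusted p under 0.05 and by DESeq2), and 1 rose and 10 fell in WT. For comparison, 26.8% of tested genes at or above the lowest level in the gene set rose in KO and 27.0% fell. In WT 24.5% of these rose and 36.7% fell. With GC and length offsets the KO changes of PFKP (0.17, edgeR adjusted p = 0.12), ALDOA (-0.04, 0.764) and ENO1 (0.08, 0.488) and the WT change of ENO1 (-0.18, 0.0732) did not pass. In KO, HK1, GPI, ALDOA, PGK1 and ENO1 each missed the threshold without any one of the 4 KO libraries (log2 fold changes 0.21 to 0.29, adjusted p up to 0.453). PFKP and PGAM1 missed it there without replicate 1 of either KO group (log2 fold changes 0.27 to 0.39, adjusted p up to 0.31), and TPI1 without replicate 1 of KO heat shock (log2 fold change 0.51, adjusted p = 0.0522). In WT, GPI missed it without replicate 1 of WT recovery (log2 fold change -0.29, adjusted p = 0.0544). PFKM missed it without replicate 1 of either WT group (log2 fold change -0.26, adjusted p up to 0.072).

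**Figure D2:**
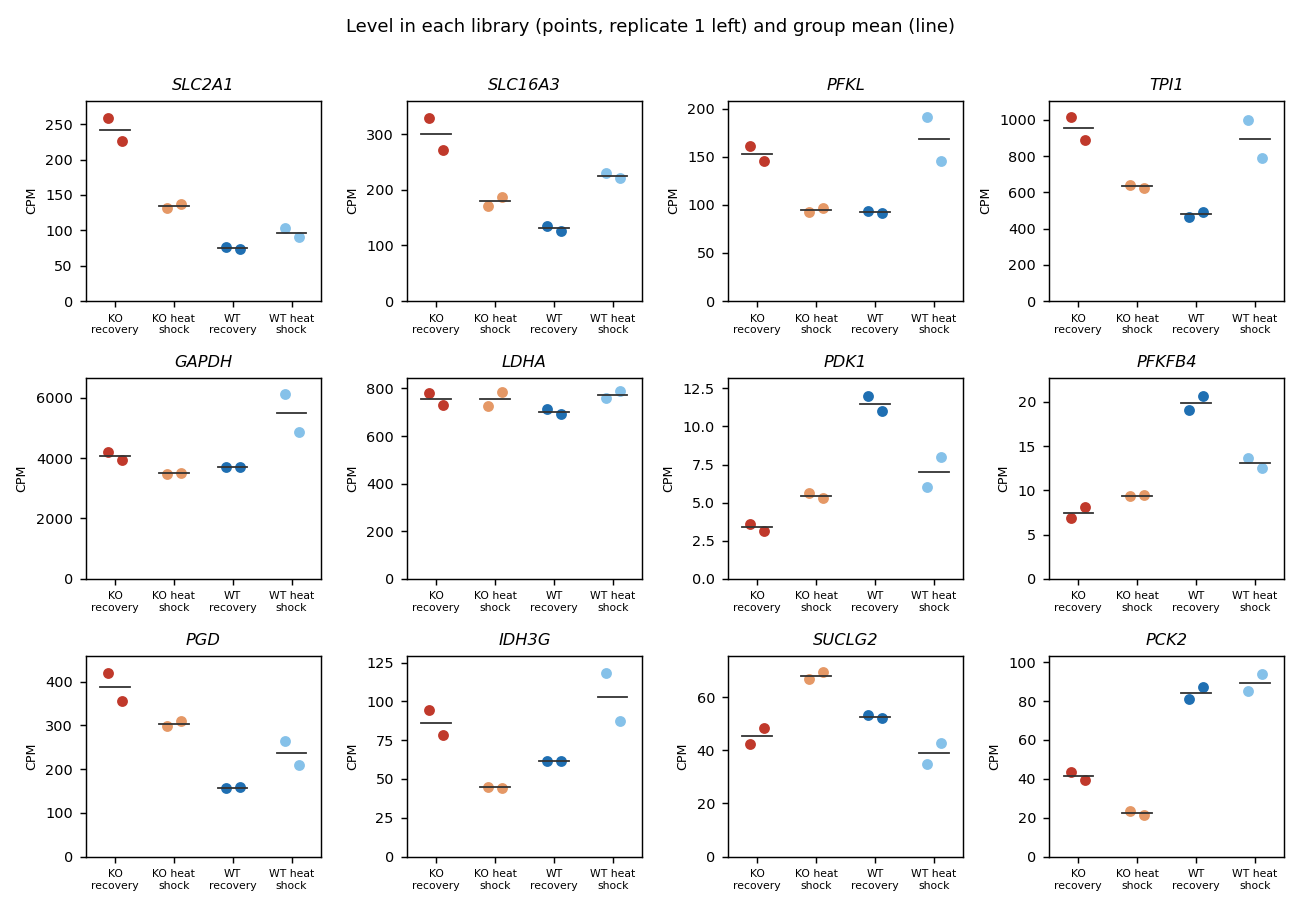
CPM of 12 of the genes in each library, on axes that start at 0, in KO recovery, KO heat shock, WT recovery and WT heat shock from left to right, with a line at each group's mean. SLC2A1, SLC16A3, PFKL, TPI1, PGD and IDH3G are higher in KO recovery than in KO heat shock and lower in WT recovery than in WT heat shock, PDK1 and SUCLG2 show the reverse, and LDHA lies between 691 and 790.1 CPM in all 8 libraries.

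Of the 4 regulators PDK1 had the largest fold change in each line, against the direction of most of the 51 genes. PDK1 phosphorylates and shuts off pyruvate dehydrogenase and so limits the turning of pyruvate into acetyl-CoA (ENSG00000152256, chr2:172555373-172608669, plus strand). It was read at a low level, with 3.62 and 3.16 CPM in KO recovery, against 5.62 and 5.29 CPM in KO heat shock. WT had 11.97 and 11.03 CPM in WT recovery, against 6.04 and 8.002 CPM in WT heat shock of PDK1. The KO recovery libraries were the lowest of all and the WT recovery libraries the highest. PDK1 fell in KO (-0.69 ± 0.18, edgeR adjusted p = 0.00435) and rose in WT (0.72 ± 0.16, edgeR adjusted p = 0.00123), and the responses differed by -1.41 ± 0.24 (edgeR adjusted p = 7e-05). An antisense gene with 889 counts overlaps PDK1, which had 1157 counts in all. The PFKFB enzymes set the level of fructose 2,6-bisphosphate, the activator of phosphofructokinase. PFKFB3, the form with the strongest kinase activity, had 62.1 and 58.6 CPM in KO recovery, against 59.6 and 58.5 CPM in KO heat shock, and 41.2 and 41.6 CPM in WT recovery, against 64.2 and 60.1 CPM in WT heat shock. It fell in WT (-0.58 ± 0.09, edgeR adjusted p = 5.1e-05) and did not pass in KO (0.03 ± 0.09, edgeR adjusted p = 0.815). PFKFB4 had 6.83 and 8.15 CPM in KO recovery, against 9.32 and 9.46 CPM in KO heat shock, and 19.1 and 20.7 CPM in WT recovery, against 13.7 and 12.5 CPM in WT heat shock. Unlike PFKFB3 it rose in WT (0.60 ± 0.13, edgeR adjusted p = 0.00061), and it did not pass in KO (-0.32 ± 0.13, edgeR adjusted p = 0.0588). PFKFB2 had 27.3 and 25.6 CPM in KO recovery, against 32.7 and 32.7 CPM in KO heat shock, and 16.8 and 18.3 CPM in WT recovery, against 17.8 and 19.5 CPM in WT heat shock. It fell in KO (-0.31 ± 0.10, edgeR adjusted p = 0.0181) and did not pass in WT (-0.09 ± 0.11, edgeR adjusted p = 0.521), and the gene YOD1 overlaps it on the other strand with 5590 counts, against 4621 for PFKFB2. Per kilobase PFKFB3 was the most abundant of the PFKFB genes in all 4 groups, at 13.5 CPM per kb in KO recovery and 9.24 in WT recovery. With a library left out, PDK1 missed the threshold in WT without replicate 1 of either WT group (log2 fold change 0.44, adjusted p up to 0.111). It missed it in KO without replicate 2 of KO recovery or either KO heat shock library (log2 fold change -0.64, adjusted p up to 0.0824). PFKFB2 missed it in KO without any one KO library (log2 fold change -0.26, adjusted p up to 0.276). With offsets for GC content and length, the KO changes of PDK1 (-0.33, edgeR adjusted p = 0.156) and PFKFB2 (-0.03, 0.838) did not pass.

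In the pentose phosphate pathway the oxidative enzyme PGD and the transketolase TKT rose in KO and fell in WT, and RPE did the reverse. PGD, 6-phosphogluconate dehydrogenase, had 419 and 356 CPM in KO recovery, against 298 and 309 CPM in KO heat shock. WT had 157 and 159 CPM in WT recovery, against 265 and 208 CPM in WT heat shock of PGD. Every KO library lay above every WT library, and within each line the groups did not overlap. PGD rose in KO (0.35 ± 0.11, edgeR adjusted p = 0.014) and fell in WT (-0.58 ± 0.11, edgeR adjusted p = 0.00026). TKT had 703 and 618 CPM in KO recovery, against 419.6 and 444 CPM in KO heat shock, and 652 and 624 CPM in WT recovery, against 928 and 683 CPM in WT heat shock. It rose in KO (0.61 ± 0.11, edgeR adjusted p = 0.00024) and fell in WT (-0.32 ± 0.11, edgeR adjusted p = 0.0217), where its heat shock replicates differed more than for any other of the 51 genes, by 0.44 on the log2 scale. TALDO1, transaldolase, had 179 and 164 CPM in KO recovery, against 147 and 162 CPM in KO heat shock, and 149 and 144 CPM in WT recovery, against 176 and 175 CPM in WT heat shock. It fell in WT (-0.26 ± 0.10, edgeR adjusted p = 0.0331) and did not pass in KO (0.15 ± 0.10, edgeR adjusted p = 0.219). RPE, which makes xylulose 5-phosphate, had 21.6 and 22.4 CPM in KO recovery, against 28.04 and 27.7 CPM in KO heat shock. WT had 39.7 and 41.6 CPM in WT recovery, against 25.7 and 28.01 CPM in WT heat shock of RPE, with recovery clearly above heat shock. RPE fell in KO (-0.34 ± 0.10, edgeR adjusted p = 0.01) and rose in WT (0.60 ± 0.10, edgeR adjusted p = 8.3e-05). RPIA, ribose 5-phosphate isomerase, had 32.8 and 31.2 CPM in KO recovery, against 40.1 and 38.6 CPM in KO heat shock, and 25.4 and 21.4 CPM in WT recovery, against 25.3 and 24.8 CPM in WT heat shock. It fell in KO (-0.30 ± 0.10, edgeR adjusted p = 0.0208), and the WT groups overlapped (-0.10 ± 0.11, edgeR adjusted p = 0.448). PGLS, the lactonase between them, averaged 16.8 ± 1.37 CPM in KO recovery and 15.7 ± 1.47 CPM in KO heat shock, against 20.2 ± 1.02 and 22.95 ± 2.50 CPM in WT recovery and WT heat shock, and did not pass in either line. RPIA and RPE missed the threshold in KO without any one KO library (log2 fold change -0.28, adjusted p up to 0.271). PGD missed it in KO without replicate 1 of either KO group (log2 fold change 0.20, adjusted p up to 0.462). TKT missed it in KO without replicate 1 of KO heat shock (log2 fold change 0.48, adjusted p = 0.0694) and in WT without replicate 1 of either WT group (log2 fold change -0.15, adjusted p up to 0.352). TALDO1 missed it in WT without 6 of the 8 libraries (log2 fold change -0.23, adjusted p up to 0.113). With GC and length offsets the KO change of PGD was 0.20 (edgeR adjusted p = 0.0774), the KO change of RPE was 0.01 (edgeR adjusted p = 0.934) and the WT change of TKT was -0.05 (0.63), and none passed.

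Pyruvate dehydrogenase joins glycolysis to the TCA cycle, and of its E1 subunits PDHA1 passed in both lines and PDHB in neither. PDHA1 averaged 102 ± 9.80 CPM in KO recovery and 81.4 ± 2.11 CPM in KO heat shock, against 77.8 ± 0.355 CPM in WT recovery and 102 ± 1.26 CPM in WT heat shock (SD, n = 2 each). It rose in KO (0.33 ± 0.09, edgeR adjusted p = 0.00678), a call lost without any one KO library (log2 fold change 0.26, adjusted p up to 0.273), and fell in WT (-0.39 ± 0.09, edgeR adjusted p = 0.00187). PDHB averaged 64.6 ± 4.98 CPM in KO recovery and 58.8 ± 2.72 CPM in KO heat shock and did not pass (0.13 ± 0.10, edgeR adjusted p = 0.307), nor in WT, with 54.2 ± 1.86 CPM in recovery and 51.3 ± 5.73 CPM in heat shock (0.08 ± 0.10, edgeR adjusted p = 0.537).

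Among the 15 TCA cycle genes, 8 rose and 2 fell in KO, and 1 rose and 6 fell in WT. Of the genes at or above the lowest level of the 51, 26.8% rose and 27.0% fell in KO. In WT 24.5% of these rose and 36.7% fell, so the number of TCA cycle genes that fell in WT was near that share. The enzymes at the entry to the cycle did not pass. CS, citrate synthase, had 280.3 and 267 CPM in KO recovery, against 258 and 269 CPM in KO heat shock, and 282 and 276 CPM in WT recovery, against 309 and 303 CPM in WT heat shock. It passed in neither line (0.06 ± 0.10 in KO and -0.13 ± 0.10 in WT), nor did ACO1, the cytosolic aconitase, at 62.4 to 72.8 CPM over the 8 libraries. The NAD-dependent isocitrate dehydrogenase is built of IDH3A, IDH3B and IDH3G, of which IDH3B and IDH3G passed in both lines and IDH3A in neither. IDH3G (ENSG00000067829, chrX:153785766-153794523, minus strand) had 94.5 and 78.2 CPM in KO recovery, against 44.97 and 44.4 CPM in KO heat shock. WT had 61.4 and 61.3 CPM in WT recovery, against 118 and 87.5 CPM in WT heat shock of IDH3G. KO heat shock was the lowest group, and WT recovery lay below both WT heat shock libraries. IDH3G rose in KO (0.94 ± 0.11, edgeR adjusted p = 1.6e-06) and fell in WT (-0.73 ± 0.11, edgeR adjusted p = 1.9e-05), and its difference of responses, 1.67 ± 0.15, was the largest of the 51 by edgeR (adjusted p = 5.4e-08). SSR4, transcribed from the other strand with 9912 counts against 12991 for IDH3G, overlaps it. IDH3B had 136 and 113 CPM in KO recovery, against 71.7 and 70.4 CPM in KO heat shock, and 73.6 and 75.3 CPM in WT recovery, against 124 and 111 CPM in WT heat shock. It changed alike, by 0.80 ± 0.10, edgeR adjusted p = 3.2e-06 in KO and by -0.66 ± 0.10, edgeR adjusted p = 2.3e-05 in WT. IDH3A, the catalytic subunit, had 129 and 128 CPM in KO recovery, against 153 and 137 CPM in KO heat shock, and 94.9 and 99.8 CPM in WT recovery, against 95.5 and 97.1 CPM in WT heat shock. It did not pass in KO (-0.17 ± 0.09, edgeR adjusted p = 0.14) or in WT (0.02 ± 0.09, edgeR adjusted p = 0.906), and the WT groups overlapped. ACSBG1 overlaps IDH3A on the other strand with 14198 counts, against 22167.

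The NADP-dependent forms IDH1, of the cytosol, and IDH2, of mitochondria, moved in opposite directions in KO. IDH1 had 60.9 and 63.6 CPM in KO recovery, against 84.7 and 87.04 CPM in KO heat shock, and 94.3 and 96.04 CPM in WT recovery, against 79.5 and 85.5 CPM in WT heat shock. It fell in KO (-0.46 ± 0.09, edgeR adjusted p = 0.00041) and did not pass in WT (0.21 ± 0.09, edgeR adjusted p = 0.064). IDH2 had 46.1 and 42.5 CPM in KO recovery, against 31.8 and 34.5 CPM in KO heat shock, and 44.1 and 37.7 CPM in WT recovery, against 53.5 and 48.5 CPM in WT heat shock. IDH2 rose in KO (0.42 ± 0.10, edgeR adjusted p = 0.00206) and fell in WT (-0.32 ± 0.10, edgeR adjusted p = 0.0114). OGDH, the E1 subunit of the 2-oxoglutarate dehydrogenase complex, had 195 and 178 CPM in KO recovery, against 133 and 136 CPM in KO heat shock. WT had 93.8 and 91.1 CPM in WT recovery, against 175 and 138 CPM in WT heat shock of OGDH. Both WT recovery libraries were below the other 6. OGDH rose in KO (0.47 ± 0.10, edgeR adjusted p = 0.00093) and fell in WT (-0.75 ± 0.10, edgeR adjusted p = 7.7e-06). DLST, the E2 subunit of the same complex, had 109 and 99.2 CPM in KO recovery, against 92.4 and 88.2 CPM in KO heat shock, and 64.8 and 67.3 CPM in WT recovery, against 119.8 and 109 CPM in WT heat shock. It fell in WT (-0.79 ± 0.09, edgeR adjusted p = 2e-06) and did not pass in KO (0.20 ± 0.09, edgeR adjusted p = 0.0822).

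Succinyl-CoA synthetase pairs the shared subunit SUCLG1 with SUCLG2, which makes GTP, or with SUCLA2, which makes ATP. SUCLG2 (ENSG00000172340, chr3:67360460-67654614, minus strand) had 42.2 and 48.5 CPM in KO recovery, against 66.8 and 69.4 CPM in KO heat shock. WT had 53.2 and 52.1 CPM in WT recovery, against 34.7 and 42.9 CPM in WT heat shock of SUCLG2. KO heat shock had the highest mean and WT heat shock the lowest, with no overlap within either line. SUCLG2 fell in KO (-0.59 ± 0.10, edgeR adjusted p = 0.00011) and rose in WT (0.45 ± 0.10, edgeR adjusted p = 0.00142). SUCLA2 had 42.9 and 43.9 CPM in KO recovery, against 47.5 and 46.01 CPM in KO heat shock, and 41.99 and 41.3 CPM in WT recovery, against 34.96 and 38.8 CPM in WT heat shock. It did not pass in KO (-0.11 ± 0.09, edgeR adjusted p = 0.387) or in WT (0.18 ± 0.10, edgeR adjusted p = 0.146). SUCLG1 went the other way from SUCLG2 in KO: it averaged 80.3 ± 10.1 CPM in KO recovery and 52.1 ± 0.692 CPM in KO heat shock, and rose (0.62 ± 0.10, edgeR adjusted p = 4.7e-05). In WT it averaged 74.9 ± 2.34 CPM in recovery and 87.4 ± 1.68 CPM in heat shock (-0.22 ± 0.10, edgeR adjusted p = 0.0604). FH, fumarase, rose in KO, with 90.8 ± 0.34 CPM in KO recovery and 75.6 ± 2.43 CPM in KO heat shock (0.26 ± 0.09, edgeR adjusted p = 0.0298), and had 74.2 ± 7.26 CPM in WT recovery and 79.96 ± 2.33 CPM in WT heat shock (-0.11 ± 0.10, edgeR adjusted p = 0.359). The malate dehydrogenases MDH1, of the cytosol, and MDH2, of mitochondria, both rose in KO. MDH1 had 203 and 199 CPM in KO recovery, against 135 and 150.3 CPM in KO heat shock, and 209 and 206 CPM in WT recovery, against 192 and 199.9 CPM in WT heat shock. Its changes were 0.50 ± 0.10, edgeR adjusted p = 0.00041 in KO and 0.08 ± 0.10, edgeR adjusted p = 0.517 in WT. MDH2 had 533 and 506 CPM in KO recovery, against 344 and 365 CPM in KO heat shock, and 391 and 365 CPM in WT recovery, against 543 and 501 CPM in WT heat shock. MDH2 also fell in WT (-0.47 ± 0.10, edgeR adjusted p = 0.00063), beside its rise in KO (0.55 ± 0.10, edgeR adjusted p = 0.00019). In KO, FH missed the threshold without any one KO library (log2 fold change 0.22, adjusted p up to 0.318). IDH2, OGDH and MDH1 missed it there without replicate 1 of either KO group (log2 fold changes 0.30 to 0.40, adjusted p up to 0.203) and MDH2 without replicate 1 of KO heat shock (log2 fold change 0.47, adjusted p = 0.0571). In WT, IDH2 missed it without replicate 2 of either WT group (log2 fold change -0.27, adjusted p up to 0.0724). SUCLG2 missed it in WT without replicate 1 of either (log2 fold change 0.25, adjusted p up to 0.11) and with GC and length offsets (0.14, edgeR adjusted p = 0.158), as did IDH2 (-0.09, 0.396).

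Among the side reactions, PCK2 and GOT1 rose in KO. PCK2, mitochondrial phosphoenolpyruvate carboxykinase, had 43.4 and 39.1 CPM in KO recovery, against 23.7 and 21.3 CPM in KO heat shock. WT had 81.01 and 87.1 CPM in WT recovery, against 85.2 and 93.7 CPM in WT heat shock of PCK2. KO recovery was above KO heat shock and yet under every WT library, and the WT groups overlapped. PCK2 rose in KO (0.88 ± 0.09, edgeR adjusted p = 8.5e-07) and did not pass in WT (-0.09 ± 0.09, edgeR adjusted p = 0.43). The aspartate aminotransferase GOT1, of the cytosol, had 138 and 131 CPM in KO recovery, against 82.8 and 89.1 CPM in KO heat shock, and 169 and 167 CPM in WT recovery, against 161 and 164 CPM in WT heat shock. It rose in KO (0.64 ± 0.09, edgeR adjusted p = 2.6e-05) and did not pass in WT (0.05 ± 0.09, edgeR adjusted p = 0.691). GOT2, its mitochondrial counterpart, had 169 and 159.5 CPM in KO recovery, against 144 and 144 CPM in KO heat shock, and 132 and 124 CPM in WT recovery, against 159 and 150.5 CPM in WT heat shock. GOT2 fell in WT (-0.27 ± 0.09, edgeR adjusted p = 0.02) and did not pass in KO (0.19 ± 0.09, edgeR adjusted p = 0.106), and the WT call was lost without replicate 2 of either WT group or replicate 1 of KO heat shock (log2 fold change -0.26, adjusted p up to 0.0717). The malic enzymes, which turn malate into pyruvate, both rose in WT. ME1, of the cytosol, had 75.1 and 72.5 CPM in KO recovery, against 70.7 and 74.4 CPM in KO heat shock, and 107 and 115 CPM in WT recovery, against 74.3 and 78.8 CPM in WT heat shock. Its changes were 0.02 ± 0.09, edgeR adjusted p = 0.856 in KO and 0.53 ± 0.09, edgeR adjusted p = 9.1e-05 in WT. ME2, of mitochondria, had 69.5 and 70.5 CPM in KO recovery, against 104 and 99.7 CPM in KO heat shock, and 88.9 and 93.9 CPM in WT recovery, against 67.3 and 77.8 CPM in WT heat shock. ME2 fell in KO (-0.54 ± 0.09, edgeR adjusted p = 0.00011) and rose in WT (0.34 ± 0.09, edgeR adjusted p = 0.0052). The WT change of ME2 did not pass without replicate 1 of either WT group (log2 fold change 0.24, adjusted p up to 0.108), and with GC and length offsets it did not pass in KO (-0.16, edgeR adjusted p = 0.0988) or in WT (0.08, 0.417).

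Summed over genes, the 51 took 17775 ± 876 CPM in KO recovery and 14505 ± 302 CPM in KO heat shock, against 14354 ± 164 CPM in WT recovery and 19122 ± 2042 CPM in WT heat shock (SD, n = 2 each). The 16 glycolytic genes made up most of this, with 12941 ± 578 CPM in KO recovery and 10656 ± 217 CPM in KO heat shock, against 10473 ± 99.4 and 14486 ± 1767 CPM in WT recovery and WT heat shock. The groups of a line did not overlap in either sum. The 15 TCA cycle genes summed to 2056 ± 85.8 CPM in KO recovery and 1677 ± 28.2 CPM in KO heat shock, against 1699.5 ± 32.6 and 2057 ± 79.7 CPM in WT recovery and WT heat shock. The 3 transporters summed to 739.6 ± 61.6 CPM in KO recovery and 526 ± 20.4 CPM in KO heat shock, against 351 ± 12.9 and 476 ± 3.87 CPM in WT recovery and WT heat shock. Over all genes the replicates were least alike in WT heat shock (correlation of log2 levels 0.9934, chi-square of 19.0 per degree of freedom). Over the 51 genes the median log2 ratio of replicate 1 to replicate 2 was 0.09 in KO recovery and 0.08 in WT heat shock. In WT recovery it was 0.02 and in KO heat shock -0.04. Replicate 1 was higher for 43 genes in KO recovery, 33 in WT heat shock, 32 in WT recovery and 18 in KO heat shock.

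**Figure D3:**
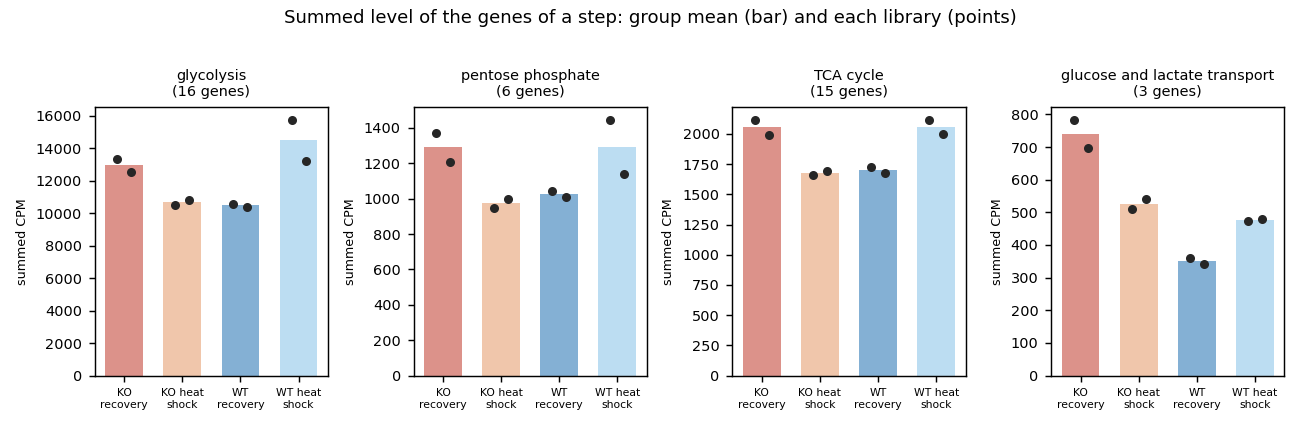
Summed CPM of the genes of 4 pathway steps, with bars for group means and points for the 2 libraries of a group, from KO recovery on the left to WT heat shock on the right. KO recovery stands above KO heat shock and WT recovery below WT heat shock in each panel.

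The second question was how the lines differed at the same time point. After recovery more of these genes were higher in KO than lower, and at the end of heat shock more were lower than higher. At recovery 24 genes were higher in KO, 11 lower and 16 did not pass, with a median log2 fold change, KO over WT, of 0.19; among all genes tested 31.8% were higher and 31.3% lower (63.1% in either direction), with a median of -0.01. Under upper-quartile scaling, which moved the median of all genes to -0.18, the split at recovery was 20 higher and 16 lower. At heat shock 9 were higher in KO, 27 lower and 15 did not pass, with a median of -0.32; among all genes tested 27.4% were higher and 28.2% lower (55.6% in either direction), with a median of -0.03. Among the 10956 genes at or above the lowest level of the 51, 43.1% were higher and 26.9% lower at recovery (70% in either direction), and 34.7% and 31.5% at heat shock (66.1%). The KO recovery libraries are shared with the KO recovery response above, and the same holds for each other group, so these counts are not independent of those before.

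After recovery the largest excess in KO was that of the transporter SLC2A1, followed by PGD and the transporter SLC16A3. SLC2A1 was higher in KO by 1.69 ± 0.09, edgeR adjusted p = 3.1e-09 at recovery and by 0.47 ± 0.09, edgeR adjusted p = 0.00058 at heat shock. SLC16A3 was higher at recovery (1.21 ± 0.10, edgeR adjusted p = 1.4e-07) and lower at heat shock (-0.33 ± 0.10, edgeR adjusted p = 0.0105), a call lost without replicate 1 of KO heat shock (log2 fold change -0.27, adjusted p = 0.106) and with GC and length offsets (0.02, edgeR adjusted p = 0.877). SLC16A1 was higher at both times (0.44 ± 0.09 at recovery and 0.46 ± 0.09 at heat shock, edgeR adjusted p = 0.00068 and 0.00054). PGD was the other gene of the 17 with opposite responses that was higher in KO at both times, by 1.30 ± 0.11, edgeR adjusted p = 2.2e-07 at recovery and by 0.36 ± 0.11, edgeR adjusted p = 0.0126 at heat shock, the last lost without replicate 2 of WT or KO heat shock (log2 fold change 0.18, adjusted p up to 0.0937). OGDH (1.01 ± 0.10, edgeR adjusted p = 1.3e-06), TPI1 (1.0 ± 0.11, edgeR adjusted p = 1.9e-06) and PGAM1 (0.86 ± 0.10, edgeR adjusted p = 3.6e-06) completed the 6 largest excesses in KO at recovery. At heat shock TPI1 (-0.50 ± 0.11) and PGAM1 (-0.52 ± 0.10) were lower in KO (edgeR adjusted p = 0.00111 and 0.00041), and OGDH did not pass (-0.21 ± 0.10, edgeR adjusted p = 0.0889), and with GC and length offsets nor did TPI1 (-0.14, 0.159).

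A second set was lower in KO at both times. ALDOC had log2 fold changes of -1.46 ± 0.10, edgeR adjusted p = 3.8e-08 at recovery and of -2.07 ± 0.11, edgeR adjusted p = 3e-09 at heat shock, and PCK2 of -1.03 ± 0.09, edgeR adjusted p = 3.8e-07 at recovery and of -2.0 ± 0.10, edgeR adjusted p = 1.8e-09 at heat shock. HK1 (-0.62 ± 0.10 at recovery and -1.12 ± 0.10 at heat shock) and GOT1 (-0.32 ± 0.08 and -0.92 ± 0.08) were lower at both times as well, with edgeR adjusted p-values of 0.00011 and 6.9e-07 for HK1 and 0.00254 and 4.6e-07 for GOT1. PFKFB4 was lower at recovery (-1.40 ± 0.12, edgeR adjusted p = 2.9e-07) and at heat shock (-0.48 ± 0.12, edgeR adjusted p = 0.00396), though with GC and length offsets not at heat shock (-0.22, edgeR adjusted p = 0.121). PDK1 was lower at recovery (-1.77 ± 0.17, edgeR adjusted p = 5.6e-07) and did not pass at heat shock (-0.37 ± 0.16, edgeR adjusted p = 0.0634), and RPE likewise (-0.89 ± 0.09, edgeR adjusted p = 1.4e-06 at recovery and 0.05 ± 0.09, edgeR adjusted p = 0.643 at heat shock). IDH3G was higher in KO at recovery (0.49 ± 0.12, edgeR adjusted p = 0.00315) and lower at heat shock (-1.20 ± 0.12, edgeR adjusted p = 2.1e-06), and PFKL was so too (0.73 ± 0.11 at recovery and -0.83 ± 0.11 at heat shock, edgeR adjusted p = 5.1e-05 and 2e-05). TKT was lower at heat shock (-0.90 ± 0.12, edgeR adjusted p = 2.1e-05) and its groups overlapped at recovery (0.05 ± 0.12, edgeR adjusted p = 0.738).

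Few genes were higher in KO at heat shock. SUCLG2 (0.81 ± 0.10, edgeR adjusted p = 1.4e-05), PFKFB2 (0.81 ± 0.10, edgeR adjusted p = 8.4e-06), RPIA (0.65 ± 0.10, edgeR adjusted p = 6.4e-05), IDH3A (0.59 ± 0.08, edgeR adjusted p = 3e-05) and ME2 (0.49 ± 0.09, edgeR adjusted p = 0.00026) were the 5 with the largest excess. At recovery PFKFB2 (0.59 ± 0.10), RPIA (0.45 ± 0.10) and IDH3A (0.40 ± 0.08) were still higher in KO (edgeR adjusted p = 0.00014, 0.00131 and 0.00068), SUCLG2 did not pass (-0.21 ± 0.10, edgeR adjusted p = 0.087), and ME2 was lower (-0.38 ± 0.09, edgeR adjusted p = 0.00148). With GC and length offsets ME2 passed neither at recovery (-0.10, edgeR adjusted p = 0.213) nor at heat shock (0.14, 0.0888). Of 35 calls at recovery and 36 at heat shock, 31 and 31 held in all 8 leave-one-out fits.

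**Figure D4:**
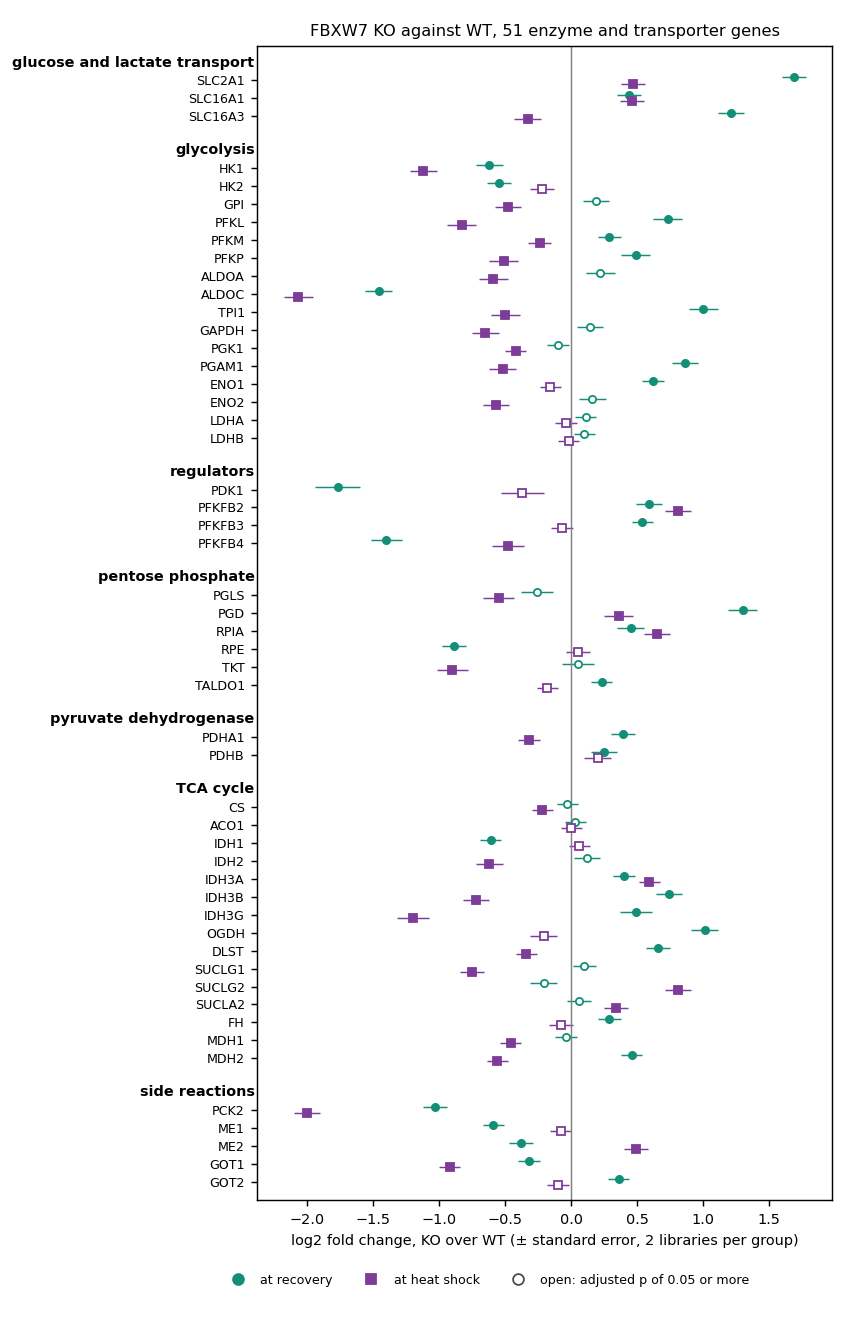
Log2 fold change of each of the 51 genes, KO over WT, at recovery (green circles) and at heat shock (purple squares), with bars of 1 standard error and 2 libraries per group. Filled symbols passed the edgeR test; SLC2A1 and PGD lie right of 0 at both times, ALDOC and PCK2 left of 0 at both, and TPI1, PFKL and IDH3G on opposite sides.

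The GC content of the transcript moved with the direction of change in the 51 genes as it did in all genes. In KO the 25 genes that rose had transcripts with a median GC content of 54.8%, and the 7 that fell 41.2%. Among all genes tested with an annotated transcript, the medians in KO were 56.5% for those that rose and 41.5% for those that fell. In WT the 7 that rose had a median GC of 40.6% and the 24 that fell 55.7%, against 43.6% and 55.3% among all genes. Within transcripts of 35% to 45% GC, the median log2 change in KO was -0.14 for the 14 genes of this set and -0.31 for the 3682 genes at or above the lowest level of the 51 in that range, and in WT 0.13 against 0.21. Within 60% to 70% GC it was 0.69 for the 5 genes of the set and 0.29 for 1618 genes in KO, and in WT -0.73 against -0.38. HK2 and PFKFB4, at 51.2% and 56.8% GC, rose in WT apart from that trend. When each library was given offsets fitted to GC content and length, 22 of the 51 genes rose and 5 fell in KO. In WT 6 rose and 32 fell, and the difference was above 0 for 34 and below 0 for 4. Over all 17471 genes tested, the same offsets gave 3252 that rose and 2655 that fell in KO. In WT 3440 rose and 5511 fell, and the difference was above 0 for 5378 and below 0 for 3491. The offsets moved the median of all genes by -0.1 in WT and by 0.12 for the difference. At those offsets PFKL still differed between the responses by 1.01, IDH3G by 1.23, TPI1 by 1.24 and PDK1 by -0.79 (edgeR adjusted p = 2e-07, 2.4e-08, 4.3e-08 and 0.00779). The differences that no longer passed were RPE (-0.23, 0.125), ALDOC (0.18, 0.203), ENO1 (0.26, 0.0686), GAPDH (0.29, 0.0593), ME2 (-0.24, 0.0662), HK1 (0.23, 0.0771), TALDO1 (0.12, 0.406), IDH1 (-0.22, 0.0902) and, with its sign reversed, ME1 (0.21, 0.125). For LDHA and LDHB, whose difference did not pass without offsets, it then passed at 0.54 and 0.40 (edgeR adjusted p = 0.00066 and 0.00543). The same held for PGK1 (0.83, 4.9e-06), PDHB (0.49, 0.00145) and ACO1 (0.35, 0.0135). It also held, with the sign reversed, for SLC16A1 (0.47, 0.00228), SUCLA2 (0.37, 0.00988) and IDH3A (0.29, 0.0281). Falls in WT that passed only with offsets included SUCLG1 (-0.48, 2.7e-05), FH (-0.43, 7.5e-05), LDHA (-0.37, 8.0e-04) and LDHB (-0.31, 0.00295). The part that base composition played in the results was not tested beyond these values.

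**Figure D5:**
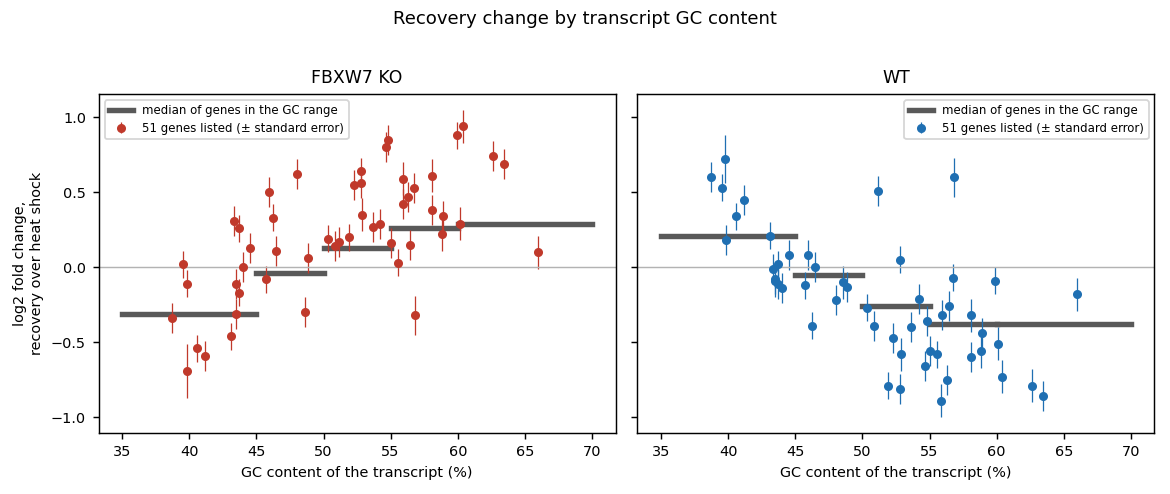
Log2 fold change, recovery over heat shock, of the 51 genes (points with bars of 1 standard error) against the GC content of their transcript, in KO on the left and WT on the right, with grey lines at the median of the tested genes at or above the lowest level of the 51 in each GC range. Points and lines rise with GC content in KO and fall in WT; in the 60% to 70% range the median of the 5 genes is 0.69 against a line at 0.29 in KO, and -0.73 against -0.38 in WT.

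Other enzymes of the same pathways, from a list of 42 of which 31 had enough reads, were split more evenly: in KO recovery 5 rose and 7 fell, and in WT recovery 9 rose and 7 fell. Some moved as most of the 51 did. PKM, the pyruvate kinase of these cells, fell in WT (-0.52 ± 0.11, edgeR adjusted p = 5.8e-04) and did not pass in KO (0.25 ± 0.11, edgeR adjusted p = 0.071), with 2165 and 1897 CPM in KO recovery, against 1696 and 1708 CPM in KO heat shock. SDHA, a succinate dehydrogenase subunit, rose in KO (0.75 ± 0.10, edgeR adjusted p = 1.6e-05) and fell in WT (-0.80 ± 0.11, edgeR adjusted p = 6.0e-06). SDHD, another subunit of the same enzyme, fell in KO (-0.87 ± 0.10, edgeR adjusted p = 1.3e-06) and rose in WT (0.78 ± 0.10, edgeR adjusted p = 5.9e-06). PDK4, which acts on pyruvate dehydrogenase as PDK1 does, had 0.402 and 0.685 CPM in KO recovery, against 1.27 and 1.11 CPM in KO heat shock, and 8.20 and 10.03 CPM in WT recovery, against 1.18 and 1.85 CPM in WT heat shock. It fell in KO (-1.09 ± 0.35, edgeR adjusted p = 0.0171) and rose in WT (2.60 ± 0.24, edgeR adjusted p = 1.2e-07), the same directions as PDK1, while PDK2 did the reverse (0.48 ± 0.12 in KO and -0.47 ± 0.12 in WT, edgeR adjusted p = 0.00356 and 0.00325). SLC2A3, the glucose transporter GLUT3, had 0.982 and 0.876 CPM in KO recovery, against 0.824 and 0.995 CPM in KO heat shock, and 5.65 and 4.86 CPM in WT recovery, against 0.614 and 0.718 CPM in WT heat shock. It rose in WT (2.97 ± 0.30, edgeR adjusted p = 3.2e-07), where SLC2A1 fell, and did not pass in KO (0.01 ± 0.33, edgeR adjusted p = 0.978). ENO3, the muscle enolase, rose in KO (0.72 ± 0.11, edgeR adjusted p = 5.1e-05) and fell in WT (-1.09 ± 0.11, edgeR adjusted p = 3.8e-07), further than TPI1 in each line. It had 265 and 217 CPM in KO recovery, against 137 and 155 CPM in KO heat shock, and 118 and 111 CPM in WT recovery, against 274 and 217 CPM in WT heat shock. ENO3 overlaps PFN1 on the other strand, which had 323698 counts, against 34133 for ENO3, so its reads are uncertain. Of the regulators named at the outset, MYC had 600.0 and 549 CPM in KO recovery, against 329 and 350.0 CPM in KO heat shock, and 266 and 251 CPM in WT recovery, against 802 and 751 CPM in WT heat shock. It rose in KO (0.76 ± 0.10, edgeR adjusted p = 8.7e-06) and fell in WT (-1.59 ± 0.10, edgeR adjusted p = 9.9e-10), the directions of the 17 genes above. HSF1 had 81.2 and 73.8 CPM in KO recovery, against 62.2 and 64.4 CPM in KO heat shock, and 82.5 and 77.3 CPM in WT recovery, against 118 and 94.8 CPM in WT heat shock. It took the same directions, up in KO (0.29 ± 0.10, edgeR adjusted p = 0.0197) and down in WT (-0.41 ± 0.10, edgeR adjusted p = 0.00169). The part of either in the changes of the 17 genes was not tested. HIF1A passed in neither line (-0.21 ± 0.09 in KO and 0.11 ± 0.09 in WT, edgeR adjusted p = 0.0893 and 0.331).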

How the data were processed

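RNA was sequenced from 8 libraries, 2 in each of 4 groups, as 50-base single reads from strand-specific dUTP libraries, per the labels' protocols. The authors deposited 4 tables, each holding raw read counts per Ensembl gene for a recovery library and its matched heat shock library. Which count column is recovery follows from the order of names in each comparison; if it were reversed, every recovery change would change sign. CASAVA, TopHat and hg19 are named in the submitters' processing notes. Neither the counting program nor its use of strand is given in the sources used here. Entries given as NA were set to 0.

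Counts were tested with edgeR 4.0.16 in R 4.3.3 (TMM scaling, filterByExpr, quasi-likelihood F test) on all 17471 genes that passed the filter, with Benjamini-Hochberg adjustment over all of them and a threshold of 0.05. For recovery against heat shock the fit held a term for each matched pair named in the series design text (2 residual degrees of freedom), and its interaction gave the difference of responses. KO was compared with WT without a block (4 residual degrees of freedom). The ± beside a log2 fold change is its standard error, and elsewhere an SD, with 2 libraries per group. Same-numbered libraries did not deviate together (r = -0.0156 in WT and -0.0138 in KO over 17471 genes). Replicate counts differed beyond sampling noise (chi-square of 2.43 to 19.0 per degree of freedom), and none were merged. Levels are CPM, or CPM per kilobase of 1 GENCODE v29 transcript per gene, and gene coordinates are GRCh38 from that annotation. Depth ran from 15507896 to 34387618 counts, and no molecular identifiers were used, so counting precision is a lower limit on the error.

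The members, lists and tests were chosen with earlier results of these data known. Values in every library were given for up to 6 genes per direction and comparison with the largest passing change, and for fixed isoenzyme sets. Overlapping genes outside these lists were named after their counts were seen. Alternatives were DESeq2 1.42.0 (test and size factors), upper-quartile scaling, no filter, offsets for GC and length (splines with 5 degrees of freedom each), the pairing switched, pseudogene counts added, and each library left out. Scripts were tested on simulated data. Some genes of the lists are not reported here.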

Additional observations from a re-analysis of the deposited data

Results flagged for a closer look

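For each gene named here, the recovery response of KO cells and that of WT cells differed by the interaction test of edgeR (adjusted p under 0.05), and the value given is the KO response minus the WT response on the log2 scale. Among the 17 genes that rose in KO and fell in WT the difference was 1.67 for IDH3G, 1.54 for PFKL, 1.53 for SLC16A3, 1.48 for TPI1, 1.46 for IDH3B, 1.37 for PGAM1, 1.22 for OGDH, 1.21 for SLC2A1, 1.02 for MDH2, 0.99 for PFKP, 0.93 for TKT, 0.92 for PGD, 0.80 for ALDOA, 0.78 for ENO1, 0.74 for IDH2, 0.71 for PDHA1 and 0.67 for GPI. Where the fall in WT passed and the KO change did not, it was 0.99 for DLST, 0.78 for GAPDH, 0.72 for ENO2, 0.62 for PFKFB3, 0.53 for PFKM, 0.46 for GOT2 and 0.41 for TALDO1. Where the rise in KO passed and the WT change did not, it was 0.97 for PCK2, 0.84 for SUCLG1, 0.61 for ALDOC, 0.59 for GOT1, 0.49 for HK1, 0.42 for MDH1 and 0.37 for FH. The reverse pattern, lower in KO recovery and higher in WT recovery, gave -1.41 for PDK1, -1.04 for SUCLG2, -0.94 for RPE and -0.87 for ME2. A rise that passed in WT alone gave -0.93 for PFKFB4, -0.51 for ME1 and -0.34 for HK2, and a fall that passed in KO alone gave -0.67 for IDH1. 

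Of these 39 differences, 31 passed in all 8 fits that left out a library. The others were HK1, HK2, PFKM, TALDO1, FH, MDH1, ME1 and GOT2, each of which missed the threshold without at least 1 KO library. With offsets for GC content and length, 9 of the 39 did not pass: RPE, ALDOC, ENO1, GAPDH, ME2, HK1, TALDO1, IDH1 and ME1.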

How the results depend on the processing

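Counts are of the 51 genes. With 1 library left out at a time, the counts ran from 9 to 28 higher and 3 to 8 lower in KO recovery, from 4 to 7 higher and 21 to 23 lower in WT recovery, from 25 to 31 above 0 and 6 to 8 below 0 for the difference of responses, from 21 to 28 higher and 11 to 13 lower for KO against WT at recovery, and from 8 to 9 higher and 24 to 31 lower at heat shock. Leaving out a library of a pair leaves its partner without weight in the paired fit. All calls held in every such fit for 12 of 32 genes in KO recovery, 22 of 31 in WT recovery, 31 of 39 for the difference, 31 of 35 at recovery and 31 of 36 at heat shock. Under DESeq2 the number lower in KO recovery was 4 instead of 7, and with GC and length offsets the number with a difference below 0 was 4 instead of 8; the causes were not tested. The other numbers higher and lower in a comparison stayed within 1.5 times under the settings that keep all libraries. The 4 genes that fell in KO and rose in WT became 1 with those offsets.

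Among values that passed with or without the change of setting, direction reversed only with GC and length offsets, for WT recovery in PDHB (-0.29), IDH3A (-0.21) and MDH1 (-0.21), for KO recovery in ALDOA (-0.04), PGLS (-0.27) and RPE (0.01), for the difference in SLC16A1 (0.47), IDH3A (0.29), SUCLA2 (0.37) and ME1 (0.21), for KO against WT at heat shock in ENO1 (0.16), SLC16A3 (0.02), RPE (-0.42), IDH1 (-0.21) and SUCLA2 (-0.07), and at recovery in MDH1 (0.19). Those offsets moved the median of all genes by up to 0.14. Values near 0 that passed in neither fit also changed sign, under those offsets and under upper-quartile scaling, which moved the median by -0.17 for KO against WT at recovery. Without the filter on low counts LDHA was higher in KO at recovery (0.20, edgeR adjusted p = 0.0414).

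Without the replicate block, 151 of 153 recovery results kept their call, and IDH1 in WT (0.21, edgeR adjusted p = 0.0423) and the difference for PGK1 (0.33, 0.0238) passed in addition; 8 genes rose and 24 fell in WT and 25 and 7 in KO. With a replicate block between lines, 101 of 102 results kept their call, and PGLS was lower in KO at recovery (-0.26, edgeR adjusted p = 0.0414). Adding pseudogene counts changed 0 of 255 calls. By DESeq2, HK1, PFKFB2, RPIA, RPE and FH did not pass in KO recovery, nor TALDO1, IDH2 and GOT2 in WT recovery, and under upper-quartile scaling TKT, TALDO1, IDH2 and GOT2 did not pass in WT. The matched pairs give 2 residual degrees of freedom, and 2 libraries per group limit every test.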
